A study of Mus musculus with 62 samples.

Results

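Fibro-adipogenic progenitors are the resident mesenchymal cells of skeletal muscle. The 10 genes described here, Pdgfra, Ly6a, Cd34, Cd248, Dpt, Smoc2, Pi16, Dpp4, Mfap4 and Fbn1, were taken by gene symbol from a table of 47643 genes measured in mouse soleus, and all 10 were found once. Soleus is a slow postural muscle of the lower leg. Its RNA was sequenced at 2, 4, 6 and 8 weeks after female mice aged 2 months received a mock injection (Con), melanoma cells labelled as cachectic (CAC) or melanoma cells labelled as non-cachectic (NCAC). Each of the 12 groups holds 5 libraries, except CAC at 8 weeks with 7, which gives 62 in all. The strain is recorded in conflicting ways, as C57BL6/J for each sample but as NCI Ath/nude in the description of the design, and the extraction protocol speaks of LLC cells. The labels name no other treatment shared by the groups, and do not name the melanoma lines. The labels call the libraries biological replicates without animal numbers, so the tests measure the spread between these libraries.

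In muscle, progenitors of this kind lie between the fibres, carry the receptor Pdgfra and the surface protein Sca1 (the product of Ly6a), and can become adipocytes or matrix-making fibroblasts. They supply matrix and secreted factors to satellite cells, the stem cells of the fibres, and to the fibres themselves. Of the surface genes, Ly6a and Cd34 are also used by endothelial cells, and Cd34 by satellite cells as well. Cd248 (endosialin) marks mesenchymal and perivascular cells. Pi16 and Dpp4 mark fibroblasts of the adventitia, the outer coat of vessels. Dpt (dermatopontin) and Smoc2 are secreted matrix proteins. Fbn1 (fibrillin) is the backbone of microfibrils, and Mfap4 is a protein associated with microfibrils and elastic fibres.

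On mm10, with the GENCODE annotation, all 10 are protein-coding genes. Pdgfra lies at chr5:75152292-75198215, Ly6a at chr15:74994877-74998031, Cd34 at chr1:194938819-194961279, Cd248 at chr19:5068078-5070682 and Dpt at chr1:164796644-164824266. Smoc2 lies at chr17:14279506-14404790, Pi16 at chr17:29317680-29330593, Dpp4 at chr2:62330073-62412231, Mfap4 at chr11:61485431-61488900 and Fbn1 at chr2:125300594-125507993. Ly6a sits in a family of similar genes, and its reads could be shared with its relatives by the counting, so its level is uncertain.

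Promoter sequences from RefSeq (GRCm38.p6), each 250 bases before to 50 bases after the annotated start, were at hand for 6 of the 10: Pdgfra, Cd34, Dpt, Pi16, Dpp4 and Fbn1. Those of Ly6a, Cd248, Smoc2 and Mfap4 are not shown. For Fbn1 and Pi16 the RefSeq start lies downstream of the GENCODE start, so their windows fall inside the genes as placed above. The 3 below stand for the 3 patterns described further on. In the main fits, Pdgfra was called higher in CAC than in Con at 6 weeks, and Fbn1 was called lower at 8 weeks. Dpt had the largest rise of the 10 from 6 to 8 weeks in Con. That of Pdgfra lies at chr5:75152001-75152300 (plus strand), that of Fbn1 at chr2:125506389-125506688 (minus strand) and that of Dpt at chr1:164796413-164796712 (plus strand). They run 5′ to 3′ on the strand of the gene, with the motifs that were found in capitals.
Pdgfra: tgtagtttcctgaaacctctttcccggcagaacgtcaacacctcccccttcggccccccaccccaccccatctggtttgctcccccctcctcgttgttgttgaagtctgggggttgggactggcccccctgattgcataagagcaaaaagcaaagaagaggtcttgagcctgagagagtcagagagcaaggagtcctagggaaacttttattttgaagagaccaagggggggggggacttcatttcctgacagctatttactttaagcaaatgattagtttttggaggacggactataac
Fbn1: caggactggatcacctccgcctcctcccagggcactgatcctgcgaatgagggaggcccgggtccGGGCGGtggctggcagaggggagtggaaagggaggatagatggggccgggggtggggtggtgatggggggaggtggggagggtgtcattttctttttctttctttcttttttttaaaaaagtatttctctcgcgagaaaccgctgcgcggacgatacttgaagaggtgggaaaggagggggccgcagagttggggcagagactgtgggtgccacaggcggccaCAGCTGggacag
Dpt: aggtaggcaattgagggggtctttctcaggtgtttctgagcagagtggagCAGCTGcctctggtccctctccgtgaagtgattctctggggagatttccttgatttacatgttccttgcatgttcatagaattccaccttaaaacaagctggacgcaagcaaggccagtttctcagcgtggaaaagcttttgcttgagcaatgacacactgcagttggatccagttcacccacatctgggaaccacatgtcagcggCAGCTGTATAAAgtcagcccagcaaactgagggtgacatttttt
The motifs searched, on both strands, were TATAAA (a core promoter box), CCAAT (bound by NF-Y), GGGCGG (an Sp1-type box), TGANTCA (an AP-1 site), GGAATG (a TEAD site) and CAGCTG (an E-box). Dpt holds CAGCTG at positions -200 and 7 from its start site (position 1), the second directly followed by TATAAA at 13, and Fbn1 holds GGGCGG at -185 and CAGCTG at 39. CAGCTG was present in 3 of the 6 promoters (Dpt, Fbn1 and Pi16) and in 16.3% of 32851 RefSeq promoters, and TATAAA in 2 of 6 (Dpt and Dpp4) and in 13.6%. Each of CCAAT (Pi16; 37.4% of all), GGGCGG (Fbn1; 35.7%) and GGAATG (Dpp4; 14.7%) was found in 1 of 6, and TGANTCA in 0 of 6 (7.81%). None of these letters occurred in the windows of Pdgfra and Cd34, and a match or its lack is a description of the window alone.

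Levels are given in TPM, a share of all transcripts that corrects for gene length and sets every library to the same total, so the depth of a library is not known from it. All 10 genes passed the filter on low values (1 TPM or more in 5 or more libraries), which left 13529 genes to test. Differences were tested with limma on log2(TPM + 1), with Benjamini-Hochberg adjustment over all 13529 genes, and a gene was called at an adjusted p under 0.05. Slow muscle markers were abundant throughout: Myh7 had a median of 4715 TPM (range 453 to 9048). Myh4, of fast fibres, reached 500 TPM in 3 libraries, CAC at 2 weeks replicate 4, NCAC at 6 weeks replicate 3 and CAC at 8 weeks replicate 6. The labels give no batch, and a difference between weeks cannot be told apart from one between dates of collection or sequencing. Rescaling the libraries to a common median moved the median change of all genes by 0.15 (log2) in CAC against Con at 6 weeks and by 0.32 from week 6 to 8 in Con. In the first comparison the calls over all genes went from 2941 higher and 328 lower to 926 and 879, and in the second from 7073 and 1045 to 4219 and 4137.

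Over the 45 libraries of weeks 2 to 6, Ly6a was the most abundant with a median of 85.2 TPM (56.0 to 174), followed by Dpt at 59.7 TPM (27.9 to 107), Smoc2 at 43.9 TPM (24.9 to 64.2) and Cd34 at 38.3 TPM (24.2 to 48.2). Pi16 had a median of 27.0 TPM (12.05 to 54.5), Mfap4 of 21.8 TPM (5.32 to 45.1), Fbn1 of 11.9 TPM (5.91 to 25.1) and Cd248 of 10.1 TPM (4.94 to 16.4). The receptor Pdgfra was low at 5.98 TPM (2.87 to 13.5), and Dpp4, a membrane peptidase, was lowest at 1.82 TPM (0.675 to 2.71). At such a level the added 1 TPM shrinks the fold changes of Dpp4. Mfap4 spread most widely, its highest library standing far above its lowest, while Cd34 spread least.

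**Figure D1:**
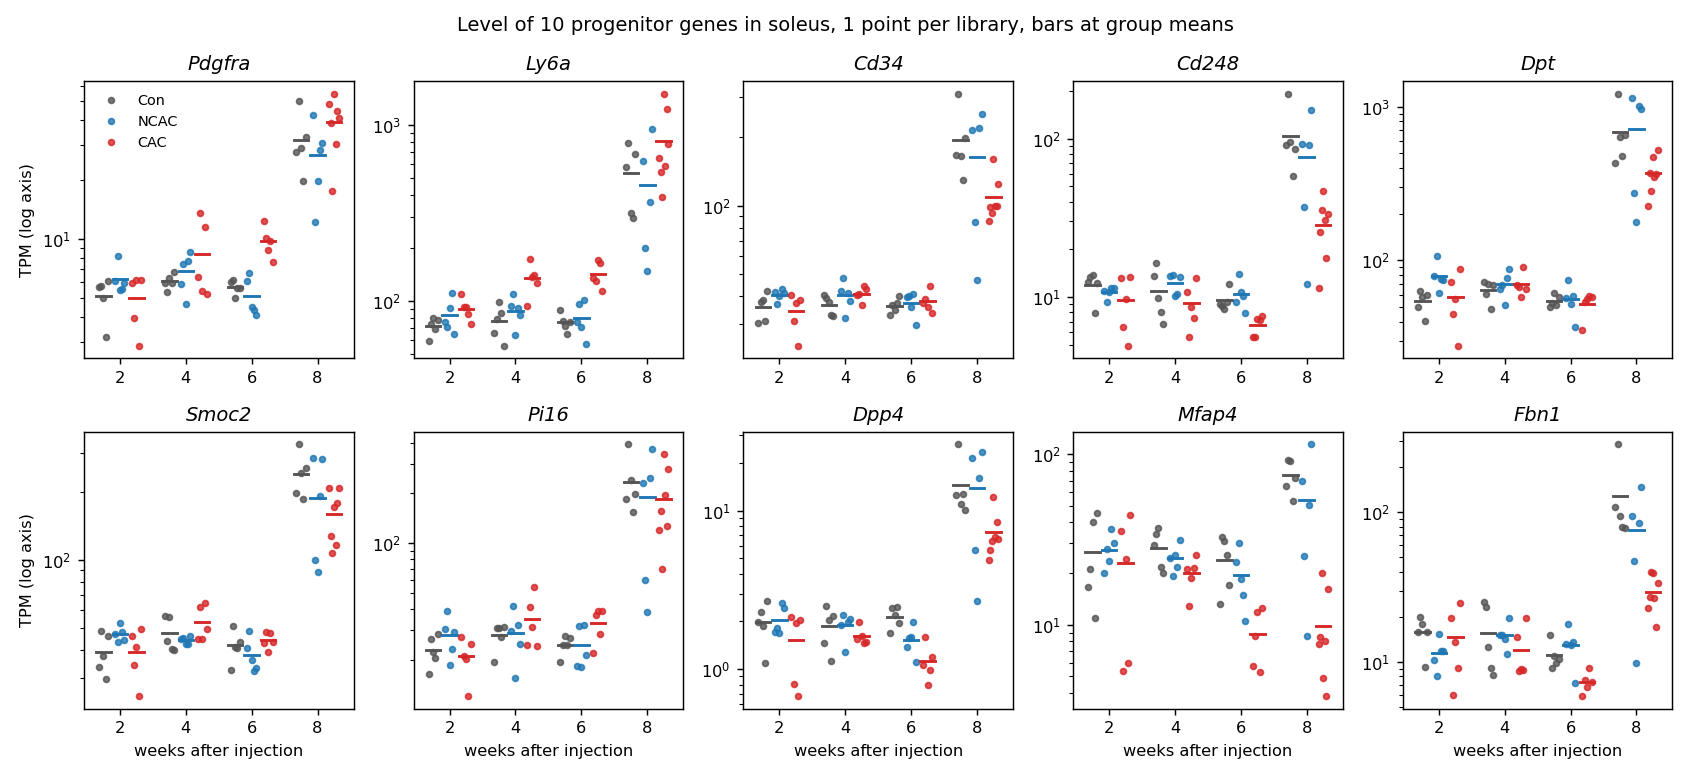
TPM on a log axis against weeks after injection for each of the 10 genes, with 1 point per library and bars at the group means of Con (grey), NCAC (blue) and CAC (red). At 8 weeks every group mean lies above the means of all earlier groups for all genes except Mfap4, whose 7 CAC libraries (3.82 to 20.0 TPM) lie within or below the earlier range of 5.32 to 45.1 TPM.

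The first question of the design is whether cachectic melanoma alters these genes in soleus before and during cachexia. At 2 weeks none of the 10 passed the test in CAC: limma called 0 against Con, where 0.00739% of all tested genes were called, and 0 against NCAC, where 0.0517% were. None reached an unadjusted p under 0.05 in either comparison. Ly6a nevertheless had 92.0 TPM as the median CAC library, against 73.7 TPM in Con. The values of CAC at 2 weeks were uneven: Mfap4 stood at 35.5, 5.35, 24.2, 5.98 and 44.3 TPM in replicates 1 to 5. Replicates 2 and 4, low for Mfap4, also had the lowest Pdgfra (3.95 and 2.87 TPM) and Dpp4 (0.805 and 0.675 TPM) of their group. In the same pair, the summed level of 11 tendon cell (tenocyte) markers was 68.8 and 92.9 TPM, while replicates 1, 3 and 5 had 674 to 708 TPM. The part of tendon in these values was not tested.

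At 4 weeks Ly6a stood apart from the other members in CAC without passing the test. Its levels were 94.4, 174, 136, 141 and 126 TPM in CAC, 65.6, 78.9, 99.2, 85.2 and 56.0 TPM in Con and 93.2, 109, 64.4, 91.6 and 83.3 TPM in NCAC. All but 1 CAC library lay above every Con and NCAC library. The difference from Con was 0.80 (log2, SE 0.30, limma, unadjusted p = 0.0104, adjusted p = 0.278), with all 5 CAC libraries above the Con mean. Without the week 8 libraries, whose spread enters the shared estimate, Ly6a was called against both Con (limma, adjusted p = 0.00268) and NCAC (adjusted p = 0.0179). Over all alternatives its adjusted p ran from 0.00268 to 0.894 against Con and from 0.0179 to 0.71 against NCAC. No member was called in the main test, against a background of 0.621% of all tested genes for CAC against Con (0.584% higher, 0.0370% lower) and 1.48% for CAC against NCAC (1.40% higher, 0.0739% lower). Ly6a was the sole member with an unadjusted p under 0.05 against Con, and against NCAC there was none.

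Pdgfra was split within CAC at 4 weeks. Its levels were 6.41, 13.5, 5.41, 11.5 and 5.25 TPM, so replicates 2 and 4 stood above the Con range of 5.40 to 6.77 TPM and the NCAC range of 4.64 to 8.52 TPM, while replicates 1 and 3 lay within both ranges and replicate 5 below that of Con. The same 2 libraries were highest in their group for Stat3, a transcription factor of cytokine signalling, at 58.2 and 75.6 TPM against 35.8 to 51.0 TPM in the rest. They also had the largest macrophage marker sums (403 and 356 TPM against 137 to 222) and adipocyte marker sums (3019 and 3747 TPM against 1298 to 2370). The part of these cell types in the Pdgfra level was not tested.

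At 6 weeks both defining surface genes were called higher in CAC than in Con, and the microfibril gene Mfap4 was called lower. After rescaling to a common median, 0 of 10 were called higher and 1, Mfap4, lower. Against Con, limma called 2 higher and 1 lower of 10, where 24.2% of all tested genes were called (21.7% higher, 2.42% lower). A share of 3 in 10 is near that background. Against NCAC, 2 of 10 were called higher and 0 lower, where 27.8% of all tested genes were called (24.6% higher, 3.19% lower). In the comparison with Con, the median change of the 10 was -0.01 against 0.16 for all genes.

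Pdgfra measured 12.3, 10.1, 8.72, 9.78 and 7.64 TPM in the CAC libraries, 6.02, 6.15, 4.99, 5.61 and 5.62 TPM in Con and 6.08, 6.69, 4.51, 4.37 and 4.08 TPM in NCAC. Every CAC library lay above every Con and NCAC library. The mean was 9.70 ± 1.73 TPM (SD, n = 5) in CAC and 5.68 ± 0.454 TPM in Con, a difference of 0.67 (log2, SE 0.24, limma, adjusted p = 0.0381). Against NCAC (5.15 ± 1.16 TPM) it was 0.81 (SE 0.24, adjusted p = 0.011).

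Ly6a measured 135, 130, 171, 165 and 114 TPM in CAC, 89.4, 77.4, 72.5, 65.3 and 76.3 TPM in Con, and 76.0, 96.7, 70.9, 101 and 57.1 TPM in NCAC. Again the CAC libraries overlapped with neither group. The difference was 0.89 from Con (SE 0.30, limma, adjusted p = 0.0258) and 0.84 from NCAC (SE 0.30, adjusted p = 0.0314).

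Mfap4 measured 5.74, 8.57, 11.96, 5.32 and 12.6 TPM in CAC against 13.3, 32.9, 30.9, 25.8 and 17.2 TPM in Con, with no overlap. It was lower by a difference of -1.34 (log2, SE 0.45, limma, adjusted p = 0.0239), from a mean of 24.0 ± 8.53 TPM (SD, n = 5) to 8.83 ± 3.38 TPM. The NCAC libraries, at 23.2, 30.1, 18.6, 15.02 and 10.6 TPM, overlapped with CAC, and that difference of -1.05 did not pass (adjusted p = 0.0702). It was called after rescaling to a common median (limma, adjusted p = 0.0387), on the groups compared alone (0.0186), without the week 8 libraries (0.0276) and without CAC replicate 5 (0.0458), within a range of 0.0186 to 0.173 over all alternatives. Mfap4 and Fbn1 belong to the same fibres. Fbn1 measured 5.91 to 9.11 TPM in CAC and 9.16 to 15.1 TPM in Con, with no overlap, and its difference of -0.53 (SE 0.38) did not pass (adjusted p = 0.317).

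Cd248 and Dpp4 also did not overlap between CAC and Con at 6 weeks. Cd248 lay at 5.60 to 7.61 TPM in CAC and 8.39 to 12.1 TPM in Con, and Dpp4 at 0.800 to 1.61 TPM against 1.70 to 2.47 TPM. In all, 6 of 10 members had separate groups (Pdgfra and Ly6a higher, the other 4 lower), where 15.6% of all tested genes did. Against NCAC, 3 did (Pdgfra and Ly6a higher, Cd248 lower), where the share over all genes was 13.9%. The remaining 4 genes, Cd34, Dpt, Smoc2 and Pi16, overlapped with both groups. For example Cd34 was 38.0 ± 4.04 TPM in CAC and 36.3 ± 2.53 TPM in Con, and Dpt 52.4 ± 9.75 and 54.7 ± 4.94 TPM.

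In the main fit, the calls at 6 weeks rest on small margins. Leaving out 1 library at a time, Pdgfra lost its call against Con in 7 of 10 fits (without CAC replicates 1, 2 or 4 or Con replicates 2, 3, 4 or 5; adjusted p up to 0.129), Ly6a in 4 (without CAC replicates 1, 3 or 4 or Con replicate 4; up to 0.0693) and Mfap4 in 4 (without CAC replicates 1 or 4 or Con replicates 2 or 3; up to 0.0853). Against NCAC, Pdgfra kept its call in all 10 such fits, with 0.048 as the highest adjusted p, and Ly6a lost it in 6 (without CAC replicates 1, 3 or 4 or NCAC replicates 1, 3 or 5; up to 0.0994). After rescaling to a common median, Mfap4 stayed lower than in Con, and Pdgfra (difference 0.50, adjusted p = 0.109) and Ly6a (0.70, adjusted p = 0.081) were no longer called. Against NCAC, rescaling ended the call of Ly6a as well (difference 0.64, adjusted p = 0.0941), and Pdgfra kept its call. With no filter on low values, Pdgfra lost its call against Con (adjusted p = 0.0661) and Ly6a against NCAC (0.0552). Fitted on the 10 libraries compared, 6 members were called against Con, 2 higher and 4 lower (Cd248, Dpp4 and Fbn1 beside Mfap4), and against NCAC Cd248, Mfap4 and Fbn1 were called lower. Without the week 8 libraries, whose spread enters the shared estimate, limma called 2 higher and 2 lower against Con. These were Pdgfra (adjusted p = 0.00578), Ly6a (9.2e-05), Mfap4 (0.00693) and Dpp4 (0.00403). Against NCAC that fit called 2 higher and 3 lower, with Cd248 (0.0244), Mfap4 (0.0276) and Fbn1 (0.0407) lower.

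**Figure D2:**
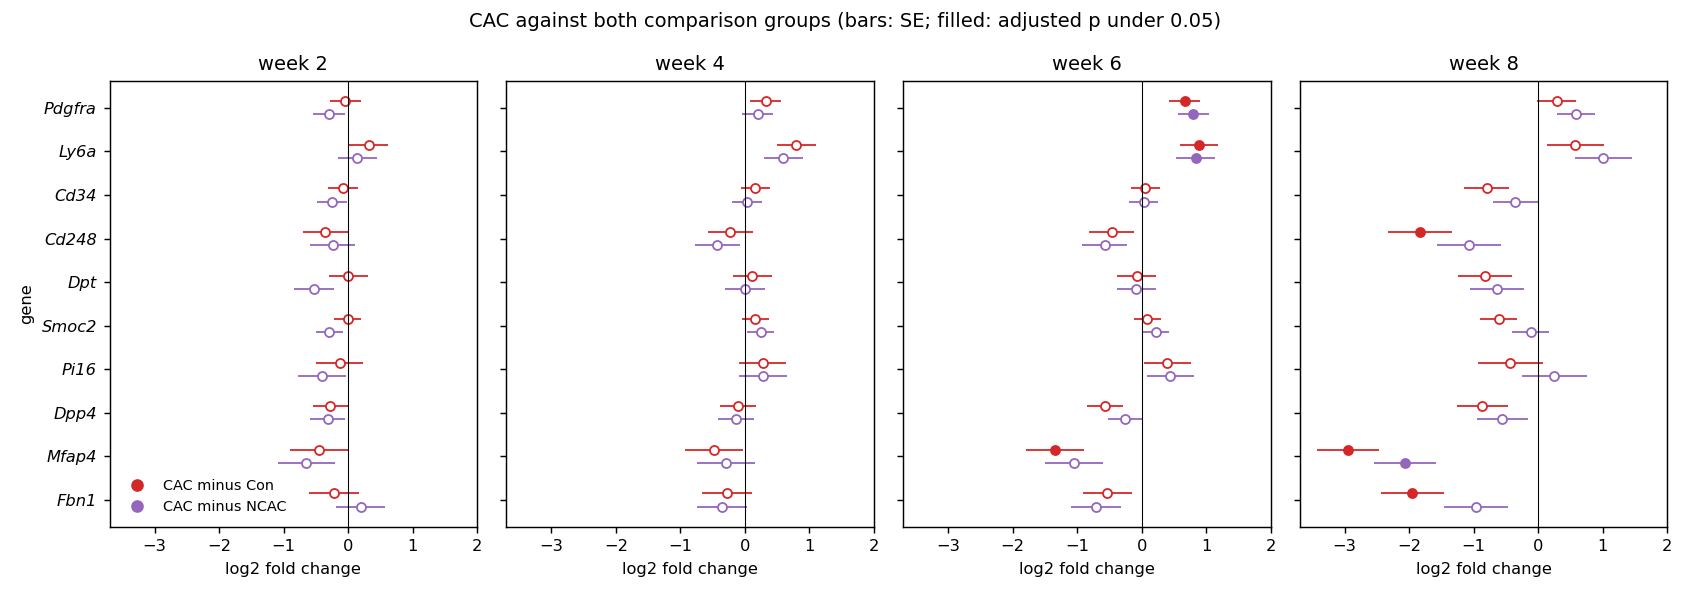
Log2 fold change of each gene in CAC against Con (red) and against NCAC (purple) at 2, 4, 6 and 8 weeks, with SE as bars and filled points for an adjusted p under 0.05. Pdgfra and Ly6a are called higher at 6 weeks, and Mfap4 moves from -1.34 at 6 weeks to -2.95 at 8 weeks against Con.

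Members of the related lists are to be read against the 24.2% of all tested genes called in CAC against Con at 6 weeks. Of 22 other progenitor and fibroblast genes, 1 was called higher in CAC than in Con and 0 lower (median 0.01): Cxcl14, a chemokine, at 136 ± 19.0 TPM (SD, n = 5) against 28.7 ± 5.31 TPM, a difference of 2.21 (SE 0.34, limma, adjusted p = 7.71e-06). Of 10 secreted factors, the alarmin Il33 was higher (11.3 ± 1.45 against 5.74 ± 0.748 TPM), and the cytokine Il15 and the Wnt amplifier Rspo3 were lower (differences -0.56 and -0.62). Of 13 fibroblast activation genes, Runx1 and Lox were higher (differences 0.68 and 1.61) and Col1a1 was lower at -1.53. Lox is a collagen and elastin crosslinking enzyme and Col1a1 encodes a chain of type I collagen. Among 11 tested genes of microfibrils and elastic fibres, Emilin1 and Eln (elastin) were higher at 0.69 and 0.89 and none was lower. Of 5 genes for PDGF ligands and the second receptor, 1 was called, the receptor Pdgfrb (25.9 ± 4.23 against 19.6 ± 2.12 TPM, difference 0.37). Among the secreted factors, activation, microfibril and PDGF genes the calls, 3 of 10, 3 of 13, 2 of 11 and 1 of 5, lie near that background share.

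Markers of other cells also differed at 6 weeks. In CAC against Con, limma called higher 5 of 12 macrophage markers, 4 of 12 adipocyte markers and 6 of 10 endothelial markers, and called lower 3 of 11 tenocyte markers (Cilp2, Kera and Chad) and 1 of 10 endothelial markers. The summed macrophage markers were 233 to 298 TPM in CAC and 139 to 171 TPM in Con, the adipocyte markers 2581 to 4119 against 1646 to 1849 TPM, and the endothelial markers 260 to 327 against 213 to 240 TPM. The tenocyte sums overlapped, at 275 to 559 TPM in CAC and 338 to 783 TPM in Con. None of these 4 lists had a marker at 0 in every library. Ly6a is shared with endothelial cells, and the part of endothelium in its rise, and of tendon in the fall of Mfap4, was not tested. Lymphocyte markers were too low to test, their sum staying at or below 1.62 TPM in both groups. In bulk RNA, fewer cells of a type and less RNA per cell cannot be told apart.

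Week 8 differed from week 6 in all 3 treatments, Con included, and in Con every one of the 10 genes rose. Here 60.0% of all tested genes were called (52.3% higher, 7.72% lower), so a rise as such was common. The median change was 2.59 (log2) for the 10 and 0.29 for all tested genes. After rescaling to a common median, the median of the 10 was 2.21 and all 10 were still called higher. The tests between weeks 6 and 8 used a spread shared over all 62 libraries. Week 8 libraries varied more than that spread, so the p values of these tests are likely too small.

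Dpt rose most in Con, by 3.52 (SE 0.31, limma, adjusted p = 1.67e-13). It measured 49.7, 53.1, 61.5, 51.2 and 58.0 TPM at 6 weeks and 431, 1214, 633, 477 and 655 TPM at 8 weeks. Fbn1 rose by 3.25 (SE 0.38), from 11.1 ± 2.32 to 129 ± 87.6 TPM, and Cd248 by 3.22 (SE 0.35), from 9.53 ± 1.47 to 104 ± 51.2 TPM (SD, n = 5). Both adventitial genes rose too, Pi16 by 3.13 to 233 ± 93.9 TPM and Dpp4 by 2.23 to 14.5 ± 6.65 TPM. The surface genes rose by 2.68 (Ly6a), 2.33 (Cd34) and 2.24 (Pdgfra), and Smoc2 by 2.50. Mfap4 rose least, by 1.65 (SE 0.45, adjusted p = 0.00131), from 24.0 ± 8.53 to 75.1 ± 16.97 TPM. The 2 weeks did not overlap for any of the 10 in Con, as for 50.3% of all tested genes.

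In NCAC, limma called all 10 higher at 8 than at 6 weeks (59.1% of all genes called, 41.3% higher and 17.9% lower), with a median of 2.17, and 7 of 10 did not overlap (25.8% of all genes). Dpt again rose most, by 3.32 (SE 0.31, adjusted p = 1.4e-12). The rise of Mfap4, 1.06 (SE 0.45, adjusted p = 0.0381), was lost without any of 6 libraries: replicates 3, 4 or 5 at 6 weeks and replicates 1, 4 or 5 at 8 weeks, with an adjusted p of up to 0.201. It was also lost after rescaling (adjusted p = 0.0813), with no filter (0.0593) and on the groups compared alone (0.146). The NCAC libraries at 8 weeks were uneven. Pdgfra stood at 42.6, 12.2, 19.6, 28.4 and 30.6 TPM, Cd248 at 92.4, 37.0, 12.02, 91.4 and 151 TPM, and Fbn1 at 94.4, 46.9, 9.86, 84.2 and 146 TPM. Replicate 3 was lowest in 9 of 10 members, with a summed level of 551 TPM against 845 to 3272 TPM in the other libraries of its group, and replicate 2 was the next lowest by this sum. Replicate 3 also had the highest macrophage sum of its group (3261 TPM) and the lowest tenocyte sum (169 TPM), and replicate 2 the lowest macrophage and adipocyte sums (435 and 4043 TPM). In Con at 8 weeks, replicate 2 was highest for 10 of 10 members, with a sum of 3675 TPM against 1470 to 2264 TPM.

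In CAC, 9 of 10 rose from week 6 to week 8 (55.7% of all genes called, 42.6% higher and 13.2% lower), with a median of 1.85, and the same number did not overlap (21.5% of all genes). Dpt rose by 2.77, Ly6a by 2.36, Pi16 by 2.29, Dpp4 by 1.93, Pdgfra by 1.86, Cd248 by 1.85, Fbn1 by 1.83, Smoc2 by 1.80 and Cd34 by 1.47. Mfap4 did not pass the test: its difference was 0.04 (SE 0.41, adjusted p = 0.937), from 8.83 ± 3.38 TPM (SD, n = 5) to 9.90 ± 5.99 TPM (n = 7). All 7 CAC libraries at 8 weeks, 7.75, 8.46, 20.0, 4.90, 8.08, 3.82 and 16.3 TPM, lay below the highest Mfap4 library of weeks 2 to 6 (45.1 TPM), and replicates 4 and 6 lay below the lowest (5.32 TPM). For Pdgfra, Ly6a, Cd34, Dpt, Smoc2, Pi16 and Dpp4, all 7 lay above the highest library of weeks 2 to 6.

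Between weeks 2 and 6 the sole call with time was Pdgfra in CAC. Limma called 0 of 10 between weeks 2 and 6 in Con and 0 in NCAC, where 0% of all genes were called and 0 of 10 members had an unadjusted p under 0.05. Over all genes, 319 did in Con and 334 in NCAC. In CAC, Pdgfra rose by 0.86 (SE 0.24, adjusted p = 0.0142; 14.1% of all genes called), from 5.03 ± 1.53 to 9.70 ± 1.73 TPM, with no overlap of the weeks. This call was lost without CAC replicate 4 at 2 weeks (adjusted p = 0.0551) or CAC replicate 1 at 6 weeks (0.0657), and without the libraries of high Myh4 (0.0521), within a range of 0.00113 to 0.0657 over all alternatives.

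Other progenitor and fibroblast genes rose together with the members at 8 weeks. The counts are to be read against the 52.3% of all tested genes called higher in Con from week 6 to 8 (7.72% lower). In Con, all 22 other progenitor and fibroblast genes were called higher (median 2.30), among them Clec3b (tetranectin) from 68.6 ± 14.002 to 652 ± 238 TPM, Islr from 22.4 ± 2.22 to 155 ± 49.9 TPM, and Efemp1, a fibulin, from 8.47 ± 0.554 to 76.2 ± 31.9 TPM. All 11 tested microfibril and elastic fibre genes rose (median 1.68), including Fbln2 by 1.68, Mfap5 by 3.01 and Loxl1 by 2.74; Mfap5 stands in both lists. Of the secreted factors 7 of 10 rose, with Igf1 (insulin-like growth factor) from 4.74 ± 0.497 to 24.8 ± 7.42 TPM and Il33 from 5.74 ± 0.748 to 33.5 ± 13.6 TPM. Of the activation genes 7 of 13 rose and 1 fell, with Fap up by 2.18 and Col3a1 by 3.01. Of the PDGF genes the ligands Pdgfc (difference 1.78) and Pdgfd (0.53) rose. The counts of activation and PDGF genes lie near or below the share over all genes.

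Adipocyte and macrophage markers rose with them. In Con from week 6 to 8, 11 of 12 adipocyte markers and 12 of 12 macrophage markers were called higher, with medians of 3.11 and 3.16. The adipocyte sum went from 1646 to 1849 TPM up to 3069 to 17562 TPM, and the macrophage sum from 139 to 171 TPM up to 1242 to 2423 TPM. Of 11 tenocyte markers 1 rose (Scx), and of 9 smooth muscle and pericyte markers 5 fell and 0 rose. Week and tissue makeup move together here, and the part of fat or other tissue in the rise of the members was not tested.

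**Figure D3:**
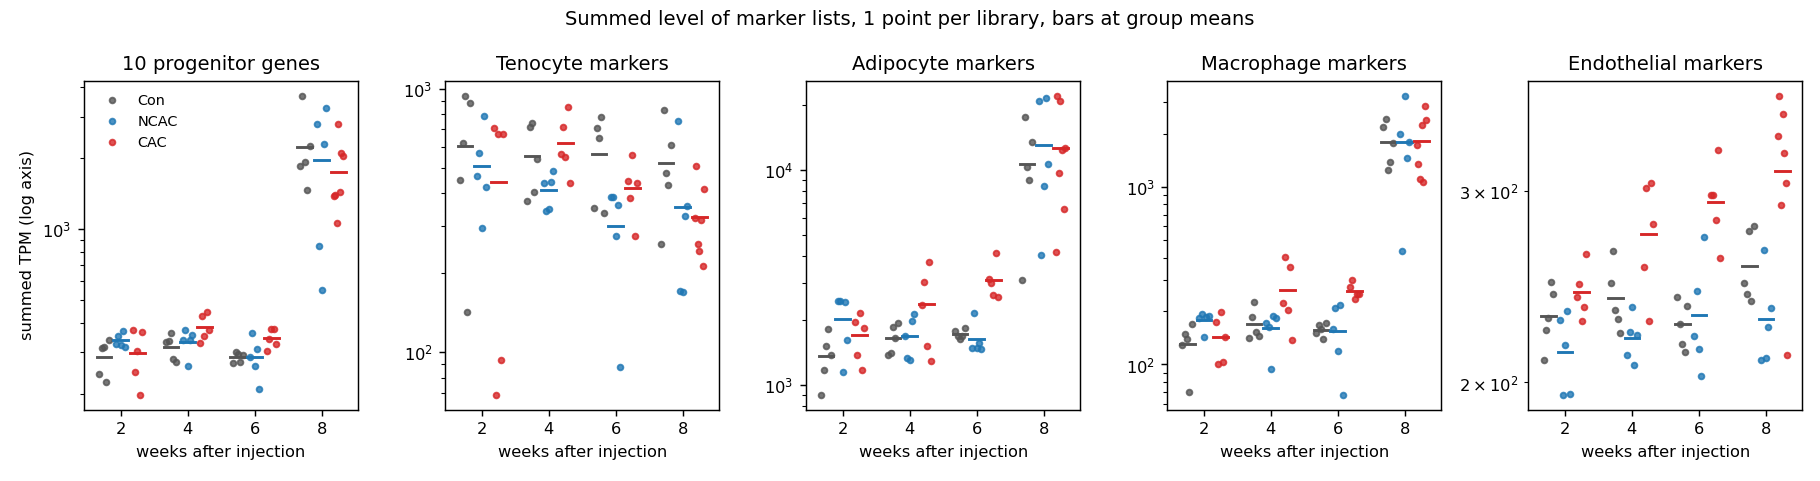
Summed TPM on a log axis against weeks after injection for the 10 progenitor genes and for tenocyte, adipocyte, macrophage and endothelial markers, with 1 point per library and bars at group means. The progenitor, adipocyte and macrophage sums are higher at 8 weeks in all 3 treatments, and the tenocyte sums overlap between weeks.

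At 8 weeks the members that differed in CAC were lower than in Con: Mfap4, Fbn1 and Cd248. Tested within the 17 libraries of that week, 0 of 10 were called higher and 3 lower, where 10.6% of all tested genes were called (6.31% higher, 4.26% lower). The same 3 had groups without overlap, as 7.02% of all genes did. The median change of the 10 was -0.81, against 0.00 for all genes.

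Mfap4 measured 65.3, 93.0, 91.2, 53.4 and 72.6 TPM in Con at 8 weeks against 3.82 to 20.0 TPM (median 8.08) in CAC. It was 7.73-fold lower on the log2(TPM + 1) scale, a difference of -2.95 (SE 0.49, limma, adjusted p = 0.00257), in 7 of 7 CAC libraries. The call held in all 12 fits that left out 1 library and in all other alternatives, with an adjusted p of at most 0.0243. Against NCAC, at 69.8, 25.4, 8.62, 50.7 and 114 TPM, the difference was -2.07 (SE 0.49, adjusted p = 0.00808). NCAC replicate 3 overlapped with CAC, and this call too held in every alternative run, with an adjusted p of at most 0.0306.

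Fbn1 measured 109, 284, 94.3, 79.8 and 79.0 TPM in Con and 17.1 to 39.7 TPM (median 27.2) in CAC, a difference of -1.95 (SE 0.49, limma, adjusted p = 0.0204). Cd248 measured 90.7, 192, 94.9, 58.2 and 85.9 TPM in Con and 11.4 to 46.5 TPM (median 30.7) in CAC, a difference of -1.83 (SE 0.49, adjusted p = 0.0269). All 7 CAC libraries lay below all 5 Con libraries for both. Without Con replicate 2, the highest library, neither passed (adjusted p = 0.062 for Fbn1 and 0.0782 for Cd248). Cd248 also lost its call without Con replicates 1, 3 or 5 or CAC replicate 1, with 0.0504 to 0.0568 as adjusted p, and with no filter on low values (0.0555). With the replicate number as a block, Fbn1 (adjusted p = 0.0835) and Cd248 (0.0977) were not called; over all alternatives Fbn1 ran from 3.18e-05 to 0.0835 and Cd248 from 1.87e-05 to 0.0977.

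The other 7 did not pass against Con. Cd34 (109 ± 25.9 TPM in CAC, n = 7, against 195 ± 69.9 TPM in Con, n = 5), Dpt (369 ± 102 against 682 ± 313 TPM), Smoc2 (160 ± 42.7 against 243 ± 55.3 TPM) and Dpp4 (7.31 ± 2.43 against 14.5 ± 6.65 TPM) had lower CAC means, with all 7 CAC libraries below the Con mean on the log2 scale. With a spread shared over all 62 libraries, these 4 were called as well, which gives 7 of 10. Pdgfra (39.4 ± 12.3 against 31.9 ± 11.3 TPM) and Ly6a (808 ± 406 against 530 ± 217 TPM) had higher CAC means and overlapped with Con, with adjusted p = 0.584 and 0.438. Pi16 was at 184 ± 95.7 against 233 ± 93.9 TPM.

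Against NCAC at 8 weeks, Mfap4 was the 1 member called, where 21.9% of all tested genes were (19.3% higher, 2.68% lower), and 0 of 10 had separate groups (6.56% of all genes). Without NCAC replicate 3, Fbn1 (difference -1.56, adjusted p = 0.00804), Cd248 (-1.62, 0.0123) and Dpp4 (-0.98, 0.0467) were called too, and without NCAC replicate 5, Ly6a was (1.35, adjusted p = 0.0374). The adjusted p of Fbn1 ran up to 0.396 over the alternatives, that of Cd248 up to 0.31 and that of Ly6a up to 0.28. Of 22 other progenitor and fibroblast genes, 1 was called higher and 5 lower in CAC than in Con at 8 weeks, and 1 higher and 0 lower against NCAC. Over all tested genes, 10.6% were called in CAC against Con at 8 weeks (6.31% higher, 4.26% lower). Tenocyte markers were lower in 6 of 11 against Con and in 4 of 11 against NCAC, with sums of 211 to 509 TPM in CAC, 258 to 827 TPM in Con and 169 to 753 TPM in NCAC. Of the adipocyte and macrophage markers 0 of 24 were called against Con. The part of tendon cells in the low Mfap4 was not tested.

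Whether the CAC effect itself changed with time was tested as a difference of differences. Between week 6 and week 8 the estimate shifted to a lower value in 10 of 10, with the largest shifts in Mfap4 (-1.61, SE 0.61), Fbn1 (-1.42, SE 0.52) and Cd248 (-1.37, SE 0.47), but limma called 0 of 10 (1.46% of all genes). The lowest adjusted p was 0.112. The median shift was -0.79 for the 10 and -0.15 for all tested genes, so lower values were the common direction. An unadjusted p under 0.05 was found for 5 of 10, and for 2523 of 13529 tested genes, 2264 of them lower. From week 2 to week 6, 0 of 10 were called (0.177% of all genes), and 1, Pdgfra, had an unadjusted p under 0.05 (difference 0.71, SE 0.34). Over all tested genes, 1330 did. These contrasts share their Con and CAC libraries at 6 weeks with the comparisons above.

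Non-cachectic tumours gave no called difference among the 10. NCAC against Con had 0 calls at every week by limma, where 0.00739% of all genes were called at 2 weeks and 0% at 4, 6 and 8 weeks. None of the 10 had an unadjusted p under 0.05 in these 4 comparisons, and over all genes 547, 55, 130 and 1205 did at 2, 4, 6 and 8 weeks. At 8 weeks the differences of the 10 ran from -0.99 to -0.19, with a median of -0.47 against -0.17 for all tested genes. Lower values were the common direction there: of the 1205 genes with an unadjusted p under 0.05 by limma, 1184 were lower.

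The makeup of the 10-gene sum differed in CAC. The sum itself was 286 ± 14.5 TPM in Con and 344 ± 32.2 TPM in CAC at 6 weeks, and 2238 ± 851 TPM and 1745 ± 598 TPM at 8 weeks. Ly6a made up 26.7 ± 3.73% of it in Con and 41.4 ± 4.51% in CAC at 6 weeks, and 23.8 ± 6.34% and 44.6 ± 8.66% at 8 weeks. Mfap4 made up 8.34 ± 2.73% in Con and 2.57 ± 0.98% in CAC at 6 weeks, and 3.53 ± 0.808% and 0.681 ± 0.578% at 8 weeks. Dpt took 19.1 ± 1.26% in Con at 6 weeks and 30.1 ± 4.24% at 8 weeks, against 15.2 ± 2.26% and 21.9 ± 4.82% in CAC. NCAC was close to Con in the share of Ly6a, at 28.1 ± 2.48% and 23.5 ± 5.02%. These shares repeat the levels given above and were not tested again.

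**Figure D4:**
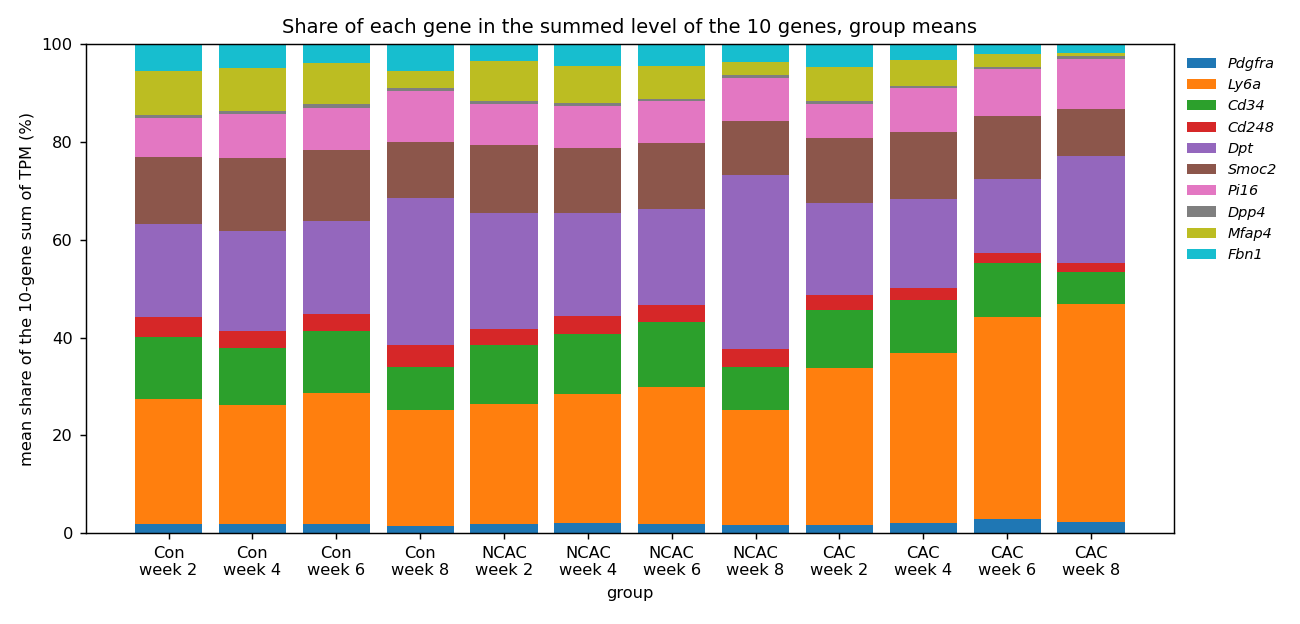
Mean share of each gene in the summed TPM of the 10 genes, in percent, as stacked bars for the 12 groups. Ly6a takes 41.4% in CAC at 6 weeks and 44.6% at 8 weeks, against 26.7% and 23.8% in Con, and Mfap4 shrinks to 0.681% in CAC at 8 weeks.

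Set against each other within a library, Pdgfra and Mfap4 separated CAC from Con at both late weeks. The ratio of Pdgfra to Mfap4 was 0.161 to 0.453 in Con and 0.608 to 2.14 in CAC at 6 weeks, with no overlap, and 0.223 to 0.385 in NCAC. At 8 weeks it was 0.317 to 0.540 in Con and 0.875 to 11.7 in CAC, again with no overlap, and 0.267 to 2.27 in NCAC, where replicate 3 gave the high value. The highest CAC value came from replicate 6, a library of high Myh4 (2040 TPM), and replicate 4 stood at 11.2. At 2 and 4 weeks CAC overlapped with Con: the ratio in CAC ran from 0.140 to 0.740 and from 0.206 to 1.04, with the highest values in replicate 2 of each week. Ly6a over Cd248 behaved likewise, at 6.31 to 9.87 in Con and 15.02 to 24.0 in CAC at 6 weeks, and 3.34 to 7.89 and 10.96 to 69.8 at 8 weeks, with the highest value again in CAC replicate 6. Of 4 ratios computed, the other 2 did not separate CAC from Con at both weeks. Pi16 over Dpp4 was 20.8 to 48.9 in CAC and 9.87 to 13.8 in Con at 6 weeks but overlapped at 8 weeks (10.9 to 41.9 and 12.1 to 21.9). Smoc2 over Fbn1 overlapped at 6 weeks (5.22 to 7.25 in CAC, 2.16 to 5.54 in Con) and at 8 weeks (2.71 to 10.4 and 1.15 to 3.23). The ratios were chosen after the values of these genes had been seen, and they are descriptions.

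**Figure D5:**
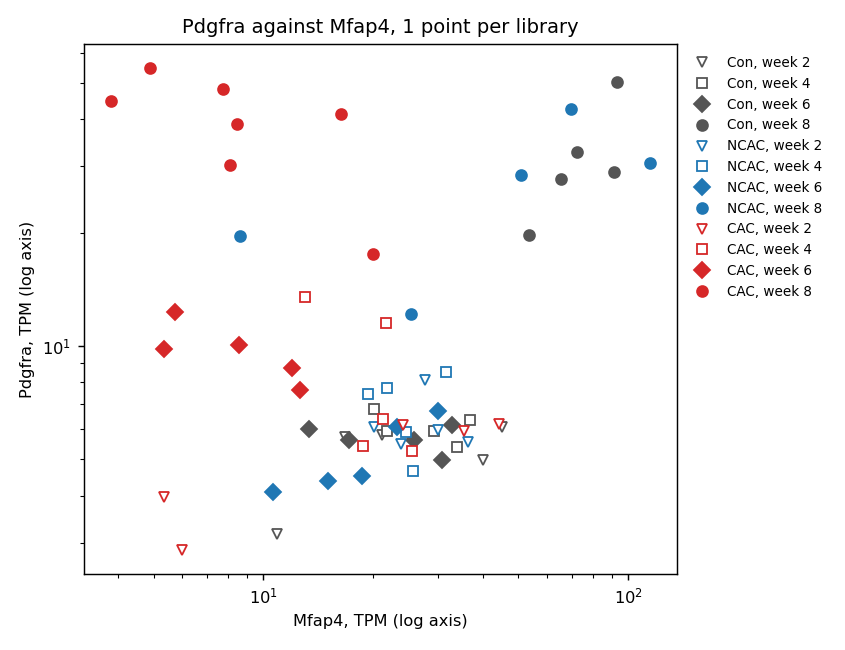
Pdgfra against Mfap4, both in TPM on log axes, with 1 point per library, colour for the treatment and shape for the week. CAC libraries at 6 weeks (diamonds) and 8 weeks (circles) have a ratio of Pdgfra to Mfap4 of 0.608 to 11.7. Con libraries at 8 weeks lie to the upper right.

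Ordered by group mean, the 3 groups of week 8 took the top 3 places for every gene except Mfap4. Few steps in these orders were larger than the larger SD of the neighbouring groups: 1 of 11 for 8 genes and 2 of 11 for Dpt and Fbn1. For Pdgfra the step came between NCAC at 8 weeks (26.7 ± 11.5 TPM) and CAC at 6 weeks (9.70 ± 1.73 TPM), and for Cd34, Cd248, Smoc2, Pi16, Dpp4, Dpt and Fbn1 between CAC at 8 weeks and the highest earlier group. For Ly6a it came between CAC at 4 weeks (134 ± 28.6 TPM) and CAC at 2 weeks (90.6 ± 12.8 TPM), so that CAC at 4 and 6 weeks stood above the other groups of weeks 2 to 6. The step from NCAC at 8 weeks down to CAC at 6 weeks, 313 TPM, did not exceed the larger SD of 331 TPM. In Mfap4 the order ended with CAC at 8 weeks and CAC at 6 weeks, below a step from NCAC at 6 weeks (19.5 ± 7.51 TPM). Fbn1 had a second step at the bottom, from Con at 6 weeks (11.1 ± 2.32 TPM) to CAC at 6 weeks (7.35 ± 1.17 TPM), and Dpt one from Con to CAC at 8 weeks. Neighbours at all other steps did not differ beyond their spread. These orders describe the groups and were not tested.

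Genes with the most similar profile were found by the root mean square difference of centred log2 group means over the 12 groups, among the 13528 other tested genes. Cd248 and Fbn1 were close: Cd248 was the nearest of all genes to Fbn1 (0.14), and Fbn1 held rank 3 from Cd248. The 3 named neighbours of both were Igfbp6, Thy1 and Efhd1 (0.12, 0.13 and 0.17 from Cd248). Cd34 and Smoc2 were each the nearest member of the other (0.13), and so were Pdgfra and Ly6a (0.23). Nearest to Pdgfra were Mmp19 (0.10), Entpd2 and Plau, to Ly6a Htra3, Gfpt2 and Ms4a6d, to Cd34 Rab7b, Anxa2 and Sirpa, and to Smoc2 Pcsk6 (0.06), Scara3 and Axl. Dpt was followed by Clec3b, S100a4 and Folr2, Pi16 by Ly86, Pld4 and Lrrn4cl, and Dpp4 by Ndn, Bdh2 and Islr. Mfap4 stood apart: its nearest member, Fbn1, was at rank 4630 with a difference of 0.78, close to the median over all genes of 0.81, and its named neighbours Tmem119, Pthlh and Igfbp5 were at 0.30, 0.31 and 0.36.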

How the data were processed

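RNA from soleus was sequenced as stranded mRNA libraries of 62 samples in 12 groups, per the labels' protocols. The authors deposited 1 table of TPM values for 47643 genes, on genome build mm10 (per the submitters' processing notes); which programs aligned and counted the reads is not given in the sources used here. Each library sums to 1000000 TPM, so depth is unknown and no counting interval was computed. No 2 libraries held identical values.

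Genes with at least 1 TPM in at least 5 libraries (13529) were tested on log2(TPM + 1) with limma 3.58.1 (R 4.3.3) with an intensity trend. Comparisons within weeks 2 to 6 and between weeks used 1 mean per group and a spread shared over all 62 libraries. Treatments at 8 weeks were compared on the 17 libraries of that week, because these libraries varied more than those of the earlier weeks. P values were adjusted by Benjamini-Hochberg within a comparison. The fits were tested on simulated data with known changes. The simulated noise had the same spread for a gene in every group, so it does not cover the larger spread of week 8. Alternatives were a pseudocount of 0.1, no filter, rescaling by median of ratios, fits on the groups compared alone, without week 8, without libraries of high Myh4, a spread shared with week 8, a replicate block, and each library left out.

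The members and all gene lists were chosen with earlier results of these data known. All 10 members were named. From each list the up to 3 called genes with the smallest adjusted p were eligible, in CAC against Con at 6 weeks and in Con from 6 to 8 weeks, with the 3 genes of most similar profile for each member, leaving out predicted genes without a proper symbol. Positions are from GENCODE M21 and promoters from RefSeq, GRCm38.p6. Sums of satellite cell and Schwann cell markers (6 and 7 genes) were computed as well: against Con, CAC had 1 of 6 and 0 of 7 called higher at 6 weeks and at 8 weeks, and none lower. Same-numbered libraries showed no regular pairing: 15 of 60 same-numbered pairs correlated over 0.1, and in 0 of 12 comparisons did every pair. This cut cannot exclude pairing. In CAC and NCAC at 4 weeks the mean correlation was 0.15 for same-numbered pairs and -0.04 for the others. In NCAC and Con at 8 weeks it was -0.27 and 0.06.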

Additional observations from a re-analysis of the deposited data

Results flagged for a closer look

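In 8 of 120 sets of values (1 gene in 1 group) the highest or lowest library stood farther from the rest than Dixon's test at 95% allows; chance flags about 1 in 20 such sets. Both Fbn1 and Dpp4 had their highest value in Con at 8 weeks in replicate 2, at 284 TPM against 79.0 to 109 TPM for Fbn1 and at 26.3 TPM against 10.04 to 12.8 TPM for Dpp4. Cd248 was low in Con at 2 weeks replicate 4 (7.90 TPM against 12.2 to 13.8) and high in Con at 6 weeks replicate 5 (12.1 TPM against 8.39 to 9.34). Dpt was low in CAC at 6 weeks replicate 1, at 35.3 TPM against 54.0 to 58.3 TPM. Pdgfra was high in NCAC at 2 weeks replicate 2, at 8.14 TPM against 5.49 to 6.08 TPM. Pi16 was low in Con at 4 weeks replicate 1 (19.2 TPM against 27.3 to 31.4), and Dpp4 in NCAC at 4 weeks replicate 3 (1.29 TPM against 1.91 to 2.19). Of the 20 differences of the CAC effect between weeks, 0 passed the adjusted threshold by limma, and 6 had an unadjusted p under 0.05. Over all tested genes, 1330 did from week 2 to 6 and 2523 from week 6 to 8.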

How the results depend on the processing

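Of 364 alternative counts of called members, 335 stayed within 1.5 times the main count, and no called difference of a single gene changed sign. The 335 include counts of 0 that stayed at 0 and counts kept by different genes. They therefore say little about the comparisons that had calls. For CAC against Con at 6 weeks (3 called), rescaling gave 1 and a fit on the groups compared 6. Against NCAC at 6 weeks (2 called), no filter gave 1, and fits on the groups compared or without week 8 gave 5. Rescaling left that count at 2, with Ly6a lost and Mfap4 gained. For CAC against Con at 8 weeks (3 called), the groups compared gave 5, a shared spread 7 and the replicate block 1; against NCAC (1 called), a shared spread gave 5. Without week 8, CAC at 4 weeks had 1 called against Con and 1 against NCAC, in place of 0. From week 2 to 6 in CAC (1 called), the groups compared gave 2 and a fit without week 8 gave 4.

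Leaving out each library, the count ran from 0 to 3 for CAC against Con and 1 to 3 against NCAC at 6 weeks, 1 to 3 and 1 to 4 at 8 weeks, 0 to 1 for CAC from week 2 to 6, and 9 to 10 for NCAC from week 6 to 8. It stayed at 10 for Con and 9 for CAC from week 6 to 8, and at 0 elsewhere. The counts of 0 against Con at 6 weeks came without CAC replicates 1 or 4. The replicate block changed no other count by over 1.5 times. Whether the numbers pair the samples was not established, and the causes were not tested. TPM without counts leaves the precision of Dpp4, at about 2 TPM before week 8, unknown.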
